A study of Mus musculus with 4 samples.

Results

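The genes described here are the neurotrophins Bdnf and Ntf3, the receptors Ntrk2, Ntrk3, Ngfr and Sort1 that bind neurotrophins or their precursors, the related trophic factor Gdnf and its receptor Gfra1. They were taken by symbol, as a set of related ligands and receptors, and are 8 of 22609 genes counted. Total RNA from the hippocampus of ovariectomized female mice was sequenced 24 h after 20 min of global cerebral ischemia, made by clamping both common carotid arteries. Ovaries had been removed 1 week before. The 2 libraries labelled FLOX-control come from mice named for the floxed aromatase gene, and the 2 labelled GFAP-ARO-KO from mice in which Cre under the Gfap promoter was used to delete Cyp19a1, the aromatase that makes estrogens from androgens, in astrocytes. Every library is therefore female, ovariectomized and ischemic, and there is no sham group. The sources used here do not give strain, age or whether a library holds 1 animal or a pool, and p-values measure only the spread between these libraries.

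Neurotrophins are secreted proteins, made as precursors, that support the survival of neurons and change the strength of synapses. BDNF binds TrkB, the product of Ntrk2, and neurotrophin-3 binds mainly TrkC, the product of Ntrk3; these receptor tyrosine kinases signal through ERK, PI3 kinase and phospholipase C gamma. The p75 receptor, encoded by Ngfr, and sortilin, encoded by Sort1, form a complex that binds the uncleaved precursors and can signal death of the cell. GDNF binds GFRalpha1, the product of Gfra1, which is anchored in the membrane by a lipid and signals through the kinase Ret or through NCAM. In the adult hippocampus Bdnf is made mainly by excitatory neurons and is switched on by activity, Ntf3 is concentrated in granule cells of the dentate gyrus, and Ntrk2 is made by neurons as the full kinase and by astrocytes mainly as a truncated form.

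Gene counts summed to between 27930696 and 34878375 reads per library, and a count of 0 allowed a level of up to 0.0854 to 0.106 CPM, the unit used below for a gene's share of the gene reads after scaling (the limit is 3 reads and covers counting error only). Cyp19a1 gave 3 and 2 reads in FLOX-control against 1 and 9 in the knockouts, too few to check the genotype labels. Summed CPM of 11 markers of meningeal fibroblasts was 107 and 153 in the controls, 117 in the first knockout library and 481 in the second, so the second knockout library stood apart. By edgeR 0 of the 11 passed (0 at an unadjusted p under 0.05; 0 with limma-voom, 1 with DESeq2), and 10 were higher without the first knockout library. Markers of dentate granule cells and of CA1 pyramidal cells were present in every library, as the label hippocampus implies. In bulk tissue, fewer cells of a type and less RNA per cell cannot be told apart.

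Bdnf and Ntf3 were the members whose counts passed the test, in opposite directions, and the sequences around their starts of transcription are shown for that reason. Bdnf has many alternative first exons that are spliced to 1 coding exon, and the table of RefSeq promoter windows (250 bases before to 50 after a start, build GRCm38.p6) gives 7 windows for it and 2 for Ntf3. Each was found once, without mismatch, in mm9, whose coordinates are used here. They were searched on both strands for the half-site TGACG of the cAMP response element, the site of CREB and related factors; the full element TGACGTCA contains it. The half-site is in capitals, read on either strand, and is in 20.8% of all 32851 windows, while the full element is in 1.79%. The windows below run 5′ to 3′ along the gene: the first start of Bdnf (chr2:109514607-109514906, plus strand), the third (chr2:109532343-109532642, plus strand), which is the activity-regulated promoter of exon IV, and both starts of Ntf3 (chr6:126116713-126117012 and chr6:126114929-126115228, minus strand).
Bdnf first start: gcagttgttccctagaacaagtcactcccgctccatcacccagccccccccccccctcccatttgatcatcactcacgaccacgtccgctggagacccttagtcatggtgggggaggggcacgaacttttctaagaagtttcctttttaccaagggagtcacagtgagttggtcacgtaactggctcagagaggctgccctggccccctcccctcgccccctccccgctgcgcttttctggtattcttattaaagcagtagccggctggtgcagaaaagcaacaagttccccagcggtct
Bdnf exon IV start: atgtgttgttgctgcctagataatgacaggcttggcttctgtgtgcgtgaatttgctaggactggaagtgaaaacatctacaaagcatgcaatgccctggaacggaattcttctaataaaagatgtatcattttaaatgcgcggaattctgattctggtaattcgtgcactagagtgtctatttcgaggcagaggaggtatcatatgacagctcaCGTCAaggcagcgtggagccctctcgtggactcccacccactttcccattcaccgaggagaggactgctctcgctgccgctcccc
Ntf3 first start: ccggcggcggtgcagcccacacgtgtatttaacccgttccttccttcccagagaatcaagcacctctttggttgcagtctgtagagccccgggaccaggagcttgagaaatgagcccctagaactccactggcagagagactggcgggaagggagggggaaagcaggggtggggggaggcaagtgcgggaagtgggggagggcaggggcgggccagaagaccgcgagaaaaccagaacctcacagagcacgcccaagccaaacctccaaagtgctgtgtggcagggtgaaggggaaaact
Ntf3 second start: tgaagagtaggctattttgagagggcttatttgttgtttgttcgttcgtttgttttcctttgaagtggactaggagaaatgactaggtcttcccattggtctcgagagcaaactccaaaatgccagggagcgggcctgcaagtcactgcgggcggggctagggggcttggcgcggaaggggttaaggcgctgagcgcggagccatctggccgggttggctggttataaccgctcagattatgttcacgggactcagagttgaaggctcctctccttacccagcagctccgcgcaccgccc

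The half-site was in 1 of 7 Bdnf windows, beginning 35 bases before the third start, and in 0 of 2 Ntf3 windows. None of these held the full element. Among the other members, the half-site was in 1 of 2 windows of Gdnf, and in none of Ntrk2, Ngfr or Gfra1. The E-box CACGTG, searched for as well, was in the first Ntf3 window and in no Bdnf window, beside 7.15% of all windows. Each match is a description of letters and not a site. The counts are summed over all exons of a gene, so the files do not tell from which start Bdnf reads came.

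Bdnf (chr2:109514857-109567204, plus strand, mm9) was lower in both knockout libraries than in either control. It gave 3034 and 2390 reads in FLOX-control, or 90.6 and 73.1 CPM, and 1738 and 962 reads in the knockouts, or 49.5 and 34.1 CPM. The groups did not overlap: the lower control was 1.48 times the higher knockout library, while the libraries within a group differed by 1.24 times in the controls and 1.45 times in the knockouts. The mean was 81.9 ± 12.4 CPM in FLOX-control against 41.8 ± 10.9 in GFAP-ARO-KO (SD, n = 2 each), and Bdnf fell by 0.97 ± 0.19 on the log2 scale (± SE, 1.95-fold lower, edgeR's quasi-likelihood test with Benjamini-Hochberg adjustment over 15011 genes, adjusted p = 0.0176). Without the first control library, the one with the highest Bdnf, the log2 fold change was -0.80 and did not pass (adjusted p = 0.0950). Without the second knockout library, the one with the lowest, it was -0.72 and passed (adjusted p = 0.0173); over the alternatives run, adjusted p ranged from 7.59e-06 to 0.0950.

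Ntf3 (chr6:126051431-126116762, minus strand) went the other way. It gave 135 and 181 reads in FLOX-control, or 4.03 and 5.54 CPM, and 262 and 250 reads in the knockouts, or 7.46 and 8.86 CPM. Each knockout library was above each control, by at least 1.35 times, a gap about as wide as the 1.37-fold difference between the controls. Ntf3 averaged 4.78 ± 1.06 CPM in FLOX-control against 8.16 ± 0.991 in GFAP-ARO-KO (SD, n = 2 each) and rose by 0.77 ± 0.22 on the log2 scale (1.70-fold, edgeR adjusted p = 0.0456). This call lay at the threshold. It was lost without the first control (log2 fold change 0.56, adjusted p = 0.286), the second control (1.01, adjusted p = 0.0968) or the second knockout library (0.65, adjusted p = 0.0856), and adjusted p ranged from 0.0127 to 0.286 over the alternatives.

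**Figure D1:**
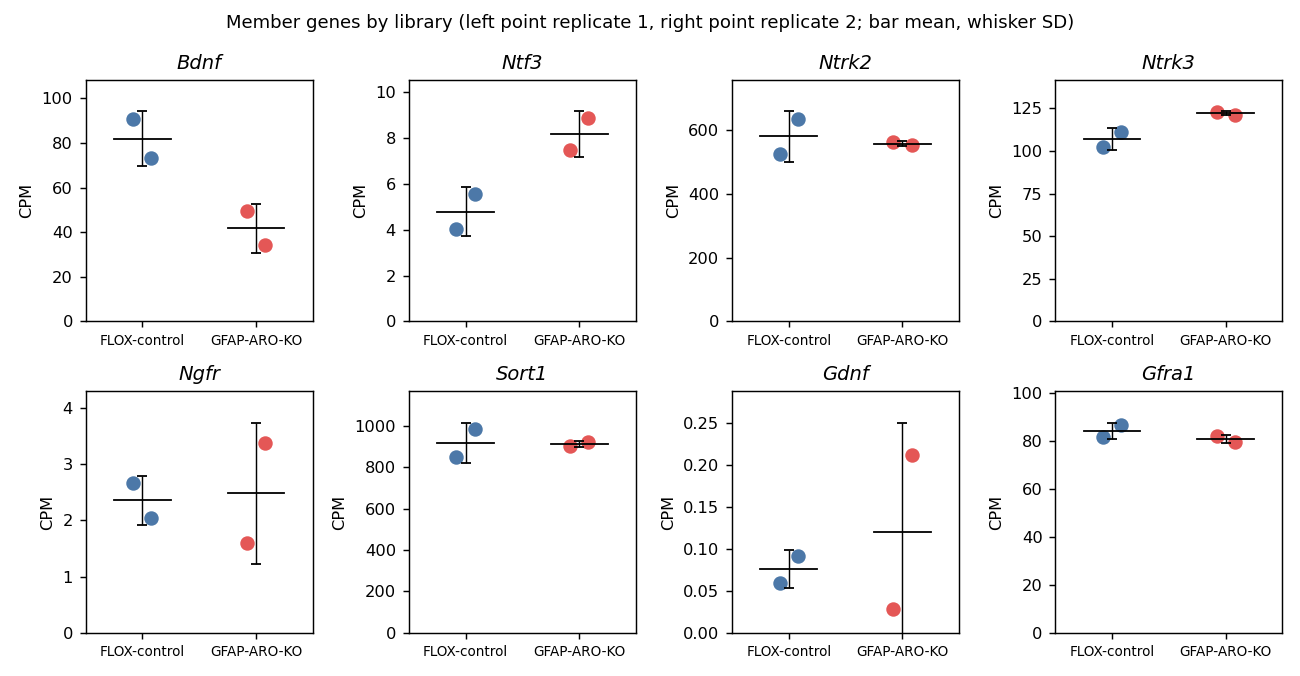
CPM of each member in the 4 libraries; the y axis starts at 0 in every panel and differs between panels, horizontal bars are means and whiskers SD of 2 libraries (the Gdnf whisker below 0 is not drawn). Bdnf sits at 73.1 and 90.6 CPM in FLOX-control against 34.1 and 49.5 in GFAP-ARO-KO, Ntf3 at 4.03 and 5.54 against 7.46 and 8.86, and the points of Ntrk2, Ngfr, Sort1, Gdnf and Gfra1 overlap between groups.

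Because the ligands moved in opposite directions, their balance within a library differed more than either gene alone, and a ratio of reads within 1 library does not depend on how libraries are scaled. There were 22.5 and 13.2 Bdnf reads for each Ntf3 read in FLOX-control against 6.63 and 3.85 in GFAP-ARO-KO. The ratio was highest in the first control and lowest in the second knockout library, with no overlap between groups. This separation follows from the counts of both ligands, each of which already separated the groups, and was not tested. Relative to its receptor gene, Bdnf gave 0.173 and 0.115 reads per Ntrk2 read in FLOX-control against 0.0879 and 0.0617 in GFAP-ARO-KO. Ntf3 gave 0.0394 and 0.0497 reads per Ntrk3 read in FLOX-control against 0.0607 and 0.0730 in GFAP-ARO-KO. These ratios repeat the ligands' counts over receptor genes that did not pass, and were not tested.

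**Figure D2:**
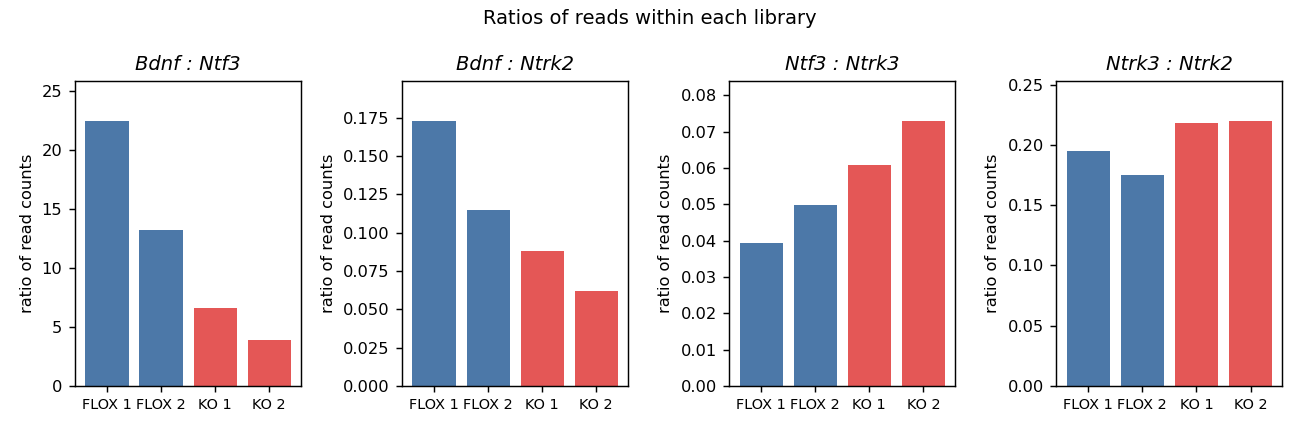
Ratios of raw read counts within each library (FLOX, FLOX-control; KO, GFAP-ARO-KO; the number is the replicate), 1 bar per library, with y axes from 0. Bdnf to Ntf3 declines from 22.5 and 13.2 in FLOX-control to 6.63 and 3.85 in the knockouts, and Ntf3 to Ntrk3 is 0.0394 and 0.0497 against 0.0607 and 0.0730.

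The Trk receptor genes did not pass. Ntrk2 (chr13:58907957-59235331, plus strand) was at 525 and 637 CPM in FLOX-control against 563 and 553 in GFAP-ARO-KO, with both knockout libraries between the controls. Its log2 fold change was -0.06 ± 0.11 (edgeR adjusted p = 0.740), with a 95% interval of -0.31 to 0.21 from limma-voom. Full-length and truncated TrkB are counted together, so a shift between them would not be seen. Ntrk3 (chr7:85337248-85723294, minus strand) was at 102 and 111 CPM in FLOX-control against 123 and 121 in GFAP-ARO-KO. Its groups did not overlap, but the knockout libraries were only 1.09 times above the higher control, and the log2 fold change of 0.19 ± 0.10 did not pass (edgeR adjusted p = 0.188; interval -0.03 to 0.42).

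The receptors for precursors did not pass either. Sort1 (chr3:108087009-108164429, plus strand) was at 847 and 987 CPM in FLOX-control against 900.1 and 921 in GFAP-ARO-KO, which lay between the controls. The log2 fold change was -0.01 ± 0.10 (edgeR adjusted p = 0.957; limma-voom interval -0.24 to 0.23). Ngfr (chr11:95430132-95449049, minus strand) gave 89 and 67 reads in FLOX-control against 56 and 95 in the knockouts, or 2.66 and 2.05 CPM against 1.60 and 3.37 CPM. The lowest and the highest library were thus both knockouts, and they differed 2.11-fold. The log2 fold change was 0.03 ± 0.38 (edgeR adjusted p = 0.962), and limma-voom's interval of -0.97 to 0.86 leaves room for a nearly 2-fold difference either way. The sign depended on the library left out, with -0.55 without the second knockout and 0.51 without the first. The second knockout library, which had the most Ngfr, also had the most RNA of meningeal fibroblasts (481 summed CPM). It had the highest sum of 7 mural cell markers too (292, against 69.6 to 91.9 in the other libraries). Of these, Acta2, Tagln, Myh11 and Pdgfrb were highest there (113.6, 60.3, 45.9 and 40.7 CPM). Rgs5, Abcc9 and Kcnj8 were not (20.5, 7.83 and 2.98 CPM), and each was highest in a control library. None of the 11 meningeal or 7 mural markers was at 0 reads in all libraries; their part in the Ngfr and Gdnf values was not tested. Chat, the enzyme that defines cholinergic neurons, which carry p75 in the forebrain, gave 1 and 0 reads in FLOX-control against 1 and 3 in GFAP-ARO-KO. These counts were all within the limit that a count of 0 allows. It is 1 of 4 cholinergic markers listed, and the others did not all go its way. Slc5a7 gave 11 and 16 reads in FLOX-control against 11 and 2 in GFAP-ARO-KO (edgeR adjusted p = 0.324). Slc18a3 gave 5 and 5 against 0 and 1, and Lhx8 0 and 0 against 3 and 0, both too few to test.

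Gdnf (chr15:7761011-7787575, plus strand) was barely detected, with 2 and 3 reads in FLOX-control against 1 and 6 in the knockouts, and did not reach the count filter. The second knockout library, at 0.213 CPM, was the only one above the level that a count of 0 allows there (0.106 CPM). The ratio of knockout to control reads was 1.46, with an exact 95% counting interval of 0.400 to 5.85, so no difference was detectable at this depth. Gfra1 (chr19:58310094-58530399, minus strand), in contrast, was at 81.8 and 86.7 CPM in FLOX-control against 82.1 and 79.8 in GFAP-ARO-KO, the most even of the members. Its log2 fold change was -0.06 ± 0.10 (edgeR adjusted p = 0.700; limma-voom interval -0.28 to 0.17). Exons of Sort1 share 329 bases with Gm12523 and those of Gfra1 share 416 bases with Gm16277, predicted transcripts on the opposite strand. No source used here gives the strand setting of the counting, and reads there could belong to either gene.

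**Figure D3:**
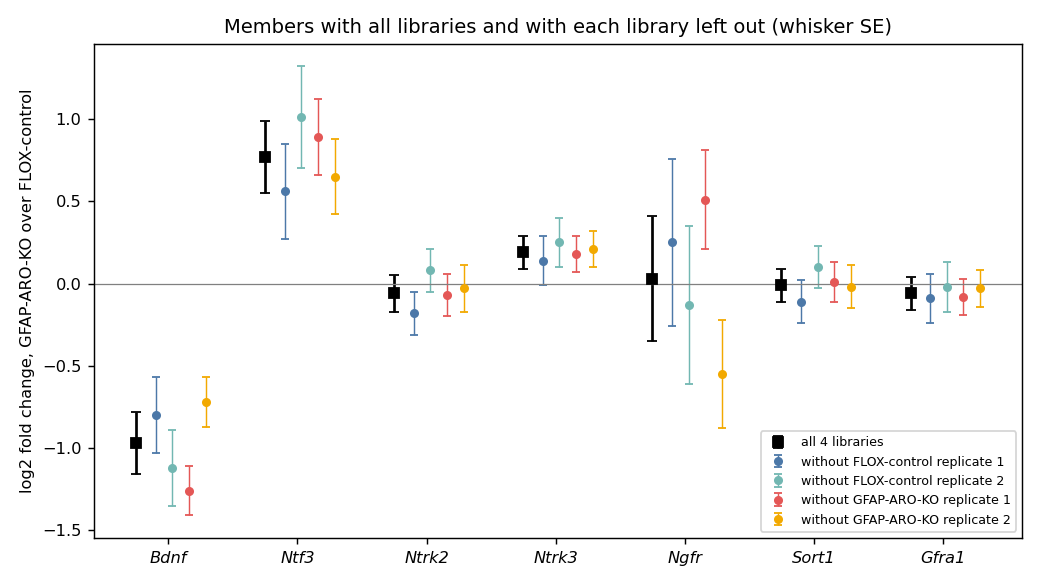
Log2 fold change of GFAP-ARO-KO over FLOX-control (y axis) for the 7 tested members, with all 4 libraries (squares) and with each library left out (circles); whiskers are SE. Bdnf stays below 0, from -1.26 to -0.72, and Ntf3 above it, from 0.56 to 1.01, while Ngfr runs from -0.55 to 0.51.

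Across the members, 7 of 8 passed the count filter; 1 of these fell, 1 rose and 5 did not pass. Among all 15011 tested genes 20.4% were called, 11.0% lower and 9.39% higher, so 2 of 7 is close to the background and says nothing particular about these genes. The groups did not overlap in CPM for 3 of the 7 (Bdnf, Ntf3 and Ntrk3), against 64.8% of all tested genes. The median log2 fold change was -0.01 over the 7 members and -0.001 over all genes. Without the first control library 0 of the 7 passed (1 had an unadjusted p under 0.05) and 5.87% of all genes did; with DESeq2 and with limma-voom 2 passed.

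Levels of different genes were compared per kb of merged exons. In the controls the order was Sort1 (121 ± 13.1 CPM per kb, SD, n = 2), Ntrk2 (38.5 ± 5.23), Ntrk3 (20.4 ± 1.21), Gfra1 (15.4 ± 0.635), Bdnf (14.0 ± 2.12), Ntf3 (3.35 ± 0.746), Ngfr (0.683 ± 0.125) and Gdnf (0.0216 ± 0.00645). Gfra1 and Bdnf did not differ beyond their spread there, at 14.9 and 15.8 against 15.5 and 12.5 CPM per kb. In the knockouts the order of means was the same, but Bdnf (8.46 and 5.83 CPM per kb) had come down to the range of Ntf3 (5.23 and 6.21), with overlapping values. The annotated exon length of Ntrk2, 15.09 kb, takes in the ends of full-length and truncated transcripts and can lower its value per kb.

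**Figure D4:**
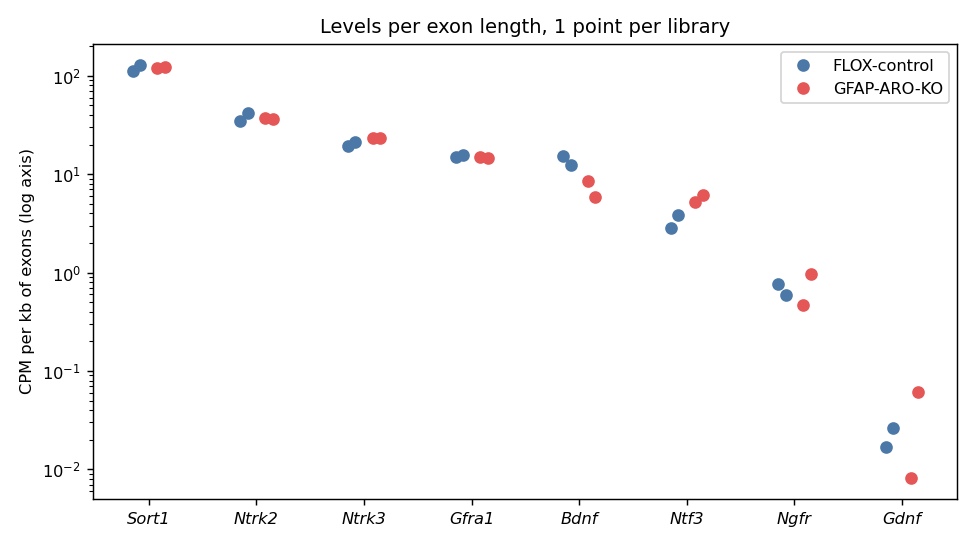
CPM per kb of merged exons on a log axis, 1 point per library, with genes ordered by their control mean. Sort1 lies above 100 CPM per kb and Gdnf below 0.1; Bdnf is beside Gfra1 in the controls (12.5 and 15.5) and beside Ntf3 in the knockouts (5.83 and 8.46 against 5.23 and 6.21).

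Among the other ligands of the families, 3 of 5 could be tested and by edgeR 0 passed (0 at an unadjusted p under 0.05, 0 with DESeq2 or limma-voom). Of the other receptors, 4 of 6 were tested. Among these 3 did not pass and 1 rose, beside 9.39% of all tested genes. This was Gfra2, the receptor of neurturin, with 32.6 and 27.4 CPM in FLOX-control against 47.3 and 56.9 in GFAP-ARO-KO, which rose by 0.79 ± 0.14 on the log2 scale (edgeR adjusted p = 0.0102; leaving out the second control made it 0.0790). Its relative Gfra1 did not pass, as given above. Ret, the kinase that both GFRalpha proteins use, was at 9.50 and 5.05 CPM in FLOX-control against 4.73 and 5.03 in GFAP-ARO-KO and did not pass (edgeR adjusted p = 0.218). The first control alone was high.

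Of 11 relatives of sortilin and partners of p75, 1 fell and 10 did not pass. For this list and the next, the shares among all tested genes were 11.0% lower and 9.39% higher. Sorcs1, a receptor of the sortilin family, was at 21.1 and 17.9 CPM in FLOX-control against 11.1 and 8.58 in GFAP-ARO-KO, and fell by 0.98 ± 0.18 on the log2 scale (edgeR adjusted p = 0.0106; leaving out the first control made it 0.0792). The count was 2 with DESeq2, 0 without that library, 3 without the first knockout and 2 without the second. Of 9 tested genes that cut neurotrophin precursors or regulate the plasmin that does, 2 rose (Mmp9 and Pcsk7) and 2 fell. Among those that fell was Pcsk1, a convertase of neurons, which lay near the threshold (log2 fold change -0.49 ± 0.14, edgeR adjusted p = 0.0436). The number that fell was 1 with upper-quartile factors, without factors and with the replicate block. Mmp9, a metalloprotease, was low at 1.49 and 1.41 CPM in the controls, and rose by 0.99 ± 0.26 (edgeR adjusted p = 0.0333; 0.168 on leaving out the first control and 0.204 on leaving out the second, 0.0970 with DESeq2). When the first or the second control was left out, 1 gene of this list passed.

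The adaptors that link the receptors to their pathways were called about as often as all genes. Of 20 adaptors and effectors of Trk and Ret, 2 rose (Sh2b2 and Ptpn11), 2 fell (Gab1 and Shc3) and 16 did not pass, with a median log2 fold change of 0.03. Sh2b2, an adaptor protein of receptor kinases, was at 4.87 and 5.38 CPM in FLOX-control against 10.8 and 10.6 in GFAP-ARO-KO and rose by 1.06 ± 0.17 (edgeR adjusted p = 0.00730; 0.0678 on leaving out the first control and 0.0512 on leaving out the second). Gab1, a docking protein that brings PI3 kinase to receptors, went from 31.5 and 28.8 CPM to 20.6 and 19.7 CPM and fell by 0.58 ± 0.12 (edgeR adjusted p = 0.0182; 0.158 on leaving out the first control and 0.0899 on leaving out the second). The 4 of 20 are close to the 20.4% of all genes. When the first or the second control was left out 1 adaptor passed, beside 5.87% and 5.29% of all genes, and without the first knockout library 8 did, beside 31.5%.

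The last lists hold regulators of Bdnf transcription and genes that activity or BDNF induces. Of 9 regulators, which include Creb1 and Npas4, edgeR called 0, although an unadjusted p was under 0.05 for 1; the count was 0 with limma-voom too. It was 1, higher in the knockouts, with DESeq2, with upper-quartile factors, without factors, with the stricter filter, without robust estimation and without the first knockout library. The median log2 fold change over the regulators was 0.06. Among 14 induced genes there were 5 that fell (Dusp6, Npy, Fos, Homer1 and Junb), 0 that rose and 9 without a call. Of all tested genes 11.0% fell and 9.39% rose, and the list was not tested against these shares. The median log2 fold change of the 14 was -0.61. Dusp6, a phosphatase that limits ERK, was at 82.3 and 63.2 CPM in FLOX-control against 38.5 and 34.7 in GFAP-ARO-KO, and fell by 0.99 ± 0.15 (edgeR adjusted p = 0.00603). Npy, a neuropeptide of interneurons, went from 79.2 and 73.8 CPM to 53.4 and 46.8 CPM and fell by 0.61 ± 0.11 (edgeR adjusted p = 0.0111; 0.0875 on leaving out the first control and 0.0530 on leaving out the second). The 14 genes together were highest in the first control library (1200 summed CPM), then the second control (854), the first knockout (730) and the second knockout (568), the order in which the libraries also fall for Bdnf. The number that fell was 8 with DESeq2, 2 without the first control, 7 without the second, and 3 without the second knockout library.

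**Figure D5:**
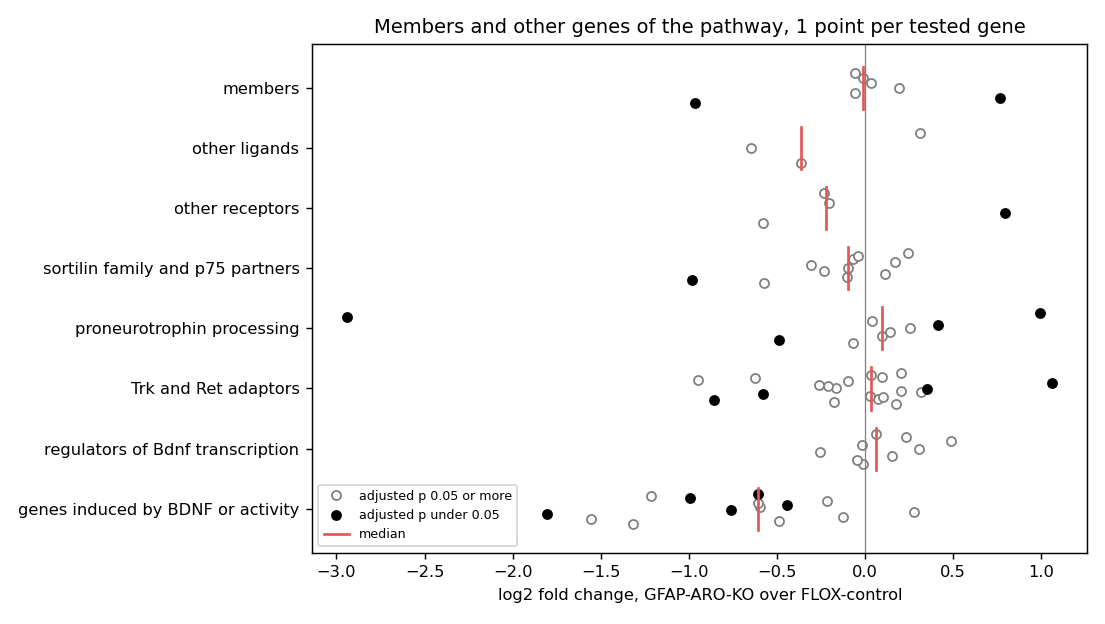
Log2 fold change of GFAP-ARO-KO over FLOX-control (x axis) for every tested gene of the members and 7 lists of the pathway; filled points have an adjusted p under 0.05 and red lines are medians. The induced genes have a median of -0.61 with 5 filled points of 14, all below 0, beside 11.0% of all tested genes. The adaptors have a median of 0.03 with 2 filled points on each side of 0, from -0.86 to 1.06. The regulators of Bdnf transcription have a median of 0.06 and 0 filled points.

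The genes whose pattern over the 4 libraries was most like that of Bdnf, among 12638 candidates, were Fastkd2, a mitochondrial RNA-binding protein gene, Mettl15, a methyltransferase gene, Grik1, a kainate receptor subunit gene, Sorcs1 and Trib1, a pseudokinase gene. Their distances from Bdnf were between 0.112 and 0.135 (root of the summed squared differences in centred log2 CPM over 4 libraries). Each was highest in the first control and lowest in the second knockout library, as Bdnf was. That shared order comes from choosing the genes by likeness over these same libraries and is no further result. Grik1, for example, was at 19.7 and 17.7 CPM in FLOX-control against 10.7 and 7.76 in GFAP-ARO-KO.

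Several lists of cell type markers had members that differed between the groups. Among all 15011 tested genes 11.0% were lower and 9.39% higher in the knockouts, and no list was tested against these shares. Beside the fall of Bdnf, 2 of 6 markers of excitatory neurons fell (0 without the first control library, 1 without the second and 3 without the first knockout) and their summed level was 8430 and 9070 CPM in FLOX-control against 7780 and 7610 in GFAP-ARO-KO. Of 9 microglial markers 8 fell, also without any 1 library, from a summed 451 and 501 CPM to 230 and 240 CPM. Beside the rise of Ntf3, 4 of 7 markers of dentate granule cells (Prox1, Dsp, C1ql2 and Tdo2) rose (2 without the second control library), from a summed 386 and 341 CPM in FLOX-control to 471 and 508 in GFAP-ARO-KO. Prox1, the transcription factor that defines granule cells, was at 44.3 and 39.2 CPM in FLOX-control against 64.6 and 64.5 in GFAP-ARO-KO. The other 3 did not pass and did not all go that way. Calb1, the granule cell marker with the highest level, was at 136 and 114 CPM in FLOX-control against 90.6 and 121 in GFAP-ARO-KO (edgeR adjusted p = 0.308). Lct had a log2 fold change of 0.04 and Stxbp6 of 0.42. Lists for cells around and within the hippocampus also had called members. Of 5 neocortex markers 2 fell, Fezf2 and Rorb, and fewer did when either control was left out. The summed level was 239 and 176 CPM in FLOX-control against 142 and 133 in GFAP-ARO-KO, the same order of libraries as for Bdnf. Neither called marker had that order. Fezf2 was higher in the second control than in the first (56.46 against 54.86 CPM). Rorb was higher in the second knockout library than in the first (11.56 against 8.6 CPM), and so was Tbr1 (33.75 against 27.25 CPM). Rprm (94.97 and 51.26 CPM in FLOX-control against 46.67 and 37.65 in GFAP-ARO-KO) and Cux2 had it, but did not pass (edgeR adjusted p = 0.128 and 0.216). Of 6 thalamus markers Slc17a6, a vesicular glutamate transporter, went from 117 and 111 CPM to 11.1 and 19.7 CPM and fell by 2.90 (edgeR adjusted p = 0.00177), whereas Prkcd rose by 0.74 (edgeR adjusted p = 0.0284, between 0.0504 and 0.157 without either control or the second knockout library) and 4 did not pass. Of 6 CA1 markers 2 fell (1 fell and 1 rose without the first control). Of 7 oligodendrocyte markers 4 fell (2 without the first control, 1 without the second), and of 6 tested choroid plexus markers 3 rose (1 with DESeq2, 0 without the first or the second control). The astrocyte list, the cell type in which the labels place Cre, had calls both ways: Gfap, Aqp4 and Sox9 fell and Gjb6 and Fgfr3 rose, of 10, with 3 calls left without the first or the second control. No marker in these lists was at 0 reads in all libraries. Their part in the values of Bdnf and Ntf3 was not tested.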

How the data were processed

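Hippocampal total RNA libraries were read from 1 end for 50 bases, per the labels' protocols. The authors deposited raw read counts per gene symbol, made with TopHat2 2.0.8b on mm9 and HTSeq, per the submitters' processing notes; runs in duplicate were combined before alignment, per the labels. No source used here gives the annotation or strand setting. The 5 rows that name no gene (45.17% to 47.3% of entries) stayed out of totals. Reads aligned at several places are among them and are lost to genes with near copies.

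Genes were filtered with filterByExpr (minimum count 10, total 15) and tested with edgeR 4.0.16 in R 4.3.3 (TMM, glmQLFit with legacy=FALSE and robust estimation) at an adjusted p of 0.05 over 15011 genes. SE is the log2 fold change over the root of F. Depth was 27930696 to 34878375 gene reads per library. Alternatives were other scalings and filters, legacy and non-robust fits, DESeq2 1.42.0, limma-voom (limma 3.58.1), a replicate block and leaving out each library. Steps were tested on simulated data. Gene positions and exon lengths are from GENCODE vM1 (mm9); promoter windows are from RefSeq and cover 6 of 8 members.

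Members and lists were chosen with earlier results of these data known. Named are all members, up to 2 called genes of each pathway list by p, and marker genes by level. The 5 genes most like Bdnf (mean log2 CPM of at least 1, prior count 0.5) are named too. Ret, Prox1, the regulators and further genes of the lists, called or not, were chosen after their values were seen. One regulator on the list (Als2cr8) matched no row. Some genes of the lists are counted but not reported here by name.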

Additional observations from a re-analysis of the deposited data

How the results depend on the processing

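Of 14 alternatives, Bdnf passed in 13 and Ntf3 in 10. Leaving out 1 library at a time gave log2 fold changes of -1.26 to -0.72 for Bdnf and 0.56 to 1.01 for Ntf3. It gave -0.55 to 0.51 for Ngfr, -0.18 to 0.08 for Ntrk2 and -0.11 to 0.10 for Sort1, none of which passed and each of which changed sign. It gave 0 to 2 members changed (0 to 1 higher, 0 to 1 lower) and 813 to 4821 genes changed in all: 901 without the first control, 813 without the second, 4821 without the first knockout and 2763 without the second, against 3061. Without robust estimation Ntf3 kept a log2 fold change of 0.77 but had an adjusted p of 0.0505, leaving 1 member changed, 0 of them higher. The sign of Ngfr changed with limma-voom (-0.05), and that of Sort1 with upper-quartile factors (0.01) and without factors (0.02); the cause was not tested. With no filter on low counts Gdnf had a log2 fold change of 0.53 (edgeR adjusted p = 0.761).

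The labels do not say that equal replicate numbers mark a shared batch, and deviations of same-numbered libraries were uncorrelated across genes (-0.00205). With the replicate block the members' calls were as before (2 changed; Bdnf -0.98, adjusted p = 0.000601; Ntf3 0.78, adjusted p = 0.0265), 3194 genes were called, and 10 of 14 induced genes fell. Depth limits Gdnf, and groups of 2 limit every member.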

Other observations

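Mettl15, among the genes most like Bdnf, is also its neighbor on chromosome 2, about 394 kb away (chr2:108932454-109120905, mm9), as read from the annotation after the likeness was seen. It was at 8.63 and 6.91 CPM in FLOX-control against 4.47 and 3.47 in GFAP-ARO-KO and fell by 0.96 ± 0.22 on the log2 scale (edgeR adjusted p = 0.0237). Of 8 tested genes within 1 Mb of Bdnf 2 fell, the other being Kif18a, a kinesin gene next to Mettl15 that fell by 0.96 ± 0.28 (edgeR adjusted p = 0.0466). On the other side of Bdnf, Lin7c was at 97.2 and 91.5 CPM in FLOX-control against 115 and 164 in GFAP-ARO-KO and did not pass (edgeR adjusted p = 0.0531). Around Ntf3, 4 of 25 tested genes within 1 Mb rose and 5 fell. Among all tested genes 9.39% were higher and 11.0% lower, and neither neighborhood was tested against them.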
